A study of Mus musculus with 3 samples.

Results

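The genes described here encode proteins that take up, break down, store and export heme and iron in the liver: Cd163, Hpx, Hmox1, Blvrb, Fth1, Ftl1, Slc40a1 and Tfrc. These 8 genes were chosen by name, with earlier results of these data known, from the 19091 genes counted over the 3 libraries, and all 8 were present in every library. Liver cells of C57BL/6 mice, a strain the study's methods give as C57BL/6J, were profiled by Drop-seq, a droplet method that tags the RNA of each cell with the barcode of a bead and each captured transcript with a unique molecular identifier (UMI). The control library came from mice labelled as sham-operated and killed after 1 day, although the methods describe the control tissue as the matching uninjured area and name no sham surgery. The other libraries came from mice killed 1 day or 7 days after irreversible electroporation (IRE), an injury set locally by electric fields that break the cell membrane. According to the labels, the field was applied in 8 pulses, each of 50 ms and 75 V, spaced 1 s apart, whereas the study's methods give another voltage. Tissue was taken with a punch of 4 mm, red blood cells were lysed, and the tissue of 3 livers was pooled into 1 library for each condition. No spread between animals can therefore be given, no test was made, and every interval below is a 95% interval that covers counting error only. Levels are given in CPM, the UMIs of a gene per 1000000 UMIs of the same library or class.

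Iron arrives in the liver bound to transferrin, which cells take up through the transferrin receptor, or inside hemoglobin and free heme from damaged red blood cells. Kupffer cells, the resident macrophages of the liver, take up aged red blood cells, break their heme down with heme oxygenase and either store the iron in ferritin or return it to the blood through ferroportin. Messenger RNAs of several of these proteins carry iron-responsive elements, hairpins that the iron regulatory proteins bind when iron is scarce. Bound near the start of a message they hold back its translation, and bound behind the coding sequence of the transferrin receptor they protect the message from decay.

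A search of the annotated untranslated regions found such a hairpin in 4 of the 8 genes, and the sequences are printed because they set the ferritin chains and ferroportin apart from the transferrin receptor. The search looked on the transcribed strand for C, a stem of 5 bases, the loop CAGTGN and 5 bases pairing with the stem, with G-T pairs allowed. In each line the 6 loop bases are in capitals.
Fth1, 5′ untranslated region: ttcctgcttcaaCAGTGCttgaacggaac
Ftl1, 5′ untranslated region: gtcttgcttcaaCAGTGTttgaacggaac
Slc40a1, 5′ untranslated region: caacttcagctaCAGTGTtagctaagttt
Tfrc, 3′ untranslated region, first hairpin: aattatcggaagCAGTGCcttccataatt
Tfrc, 3′ untranslated region, second hairpin: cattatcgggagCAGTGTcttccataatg
Tfrc, 3′ untranslated region, next hairpin: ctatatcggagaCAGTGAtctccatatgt
Tfrc, 3′ untranslated region, last hairpin: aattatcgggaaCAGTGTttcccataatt
In the GENCODE M21 annotation of GRCm38 the hairpin of Fth1 lies at chr19:9982732-9982760 on the plus strand, that of Ftl1 at chr7:45459779-45459807 on the minus strand and that of Slc40a1 at chr1:45925465-45925493 on the minus strand, each in exon 1. Those of Tfrc lie in exon 19 on the plus strand, at chr16:32631219-32631247, chr16:32631598-32631626, chr16:32631663-32631691 and chr16:32631710-32631738. The same pattern was found in the 5′ untranslated region of 31 of 20574 genes (0.151%) and in the 3′ untranslated region of 129 of 20960 genes (0.615%). It was not found in Hmox1, Cd163, Blvrb or Hpx, which says only that these letters are not in their annotated untranslated regions. A hairpin that departs from this pattern, in Tfrc or in any other gene, would be missed by the search. A match describes the sequence and is not a measured binding site, and UMI counts measure the amount of message, not its translation.

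Cells are the barcodes in which 200 or more genes were detected. There were 10386 in control, 9253 at 1 day and 5624 at 7 days p.i., holding 8013800, 6107866 and 3058967 UMIs and median depths of 595, 509 and 456.5 UMIs per cell. The library of 7 days p.i. stood apart in several ways. Mitochondrial genes took 4.10% of its UMIs, against 20.5% in control and 21.7% at 1 day p.i., and the neutrophil transcripts S100a8 and S100a9 took 3.53%, against 0.339% and 0.0538%. Secretory hepatocyte transcripts took 0.154% in control, 2.95% at 1 day and 0.0289% at 7 days p.i. Of the cells, 192, 462 and 339 carried a barcode that another library also held. Cell classes were assigned by marker genes that exclude the 8 genes, and 48.8%, 70.0% and 58.2% of the cells received no class. Of the genes kept aside to check the classes, all 5 of Kupffer-like and all 5 of endothelial-like cells were at least 2-fold above the other cells in each library, against 1 of 3 for monocyte-like cells in control, 2 of 3 for them at 7 days p.i. and 2 of 4 for neutrophil-like cells at 7 days p.i. No erythroid cell was assigned in any library.

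At the level of whole libraries the genes fell into opposite patterns, which the plot of CPM by library shows. At 1 day p.i. the messages of heme and hemoglobin capture, Hpx and Cd163, were more abundant than in control, whereas both ferritin chains and Hmox1 were less abundant. At 7 days p.i. Hmox1, Fth1 and Ftl1 were several-fold above control, and Slc40a1, Cd163 and Hpx were several-fold below it. In such sums over a library, fewer cells of a type and less RNA per cell cannot be told apart.

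**Figure D1:**
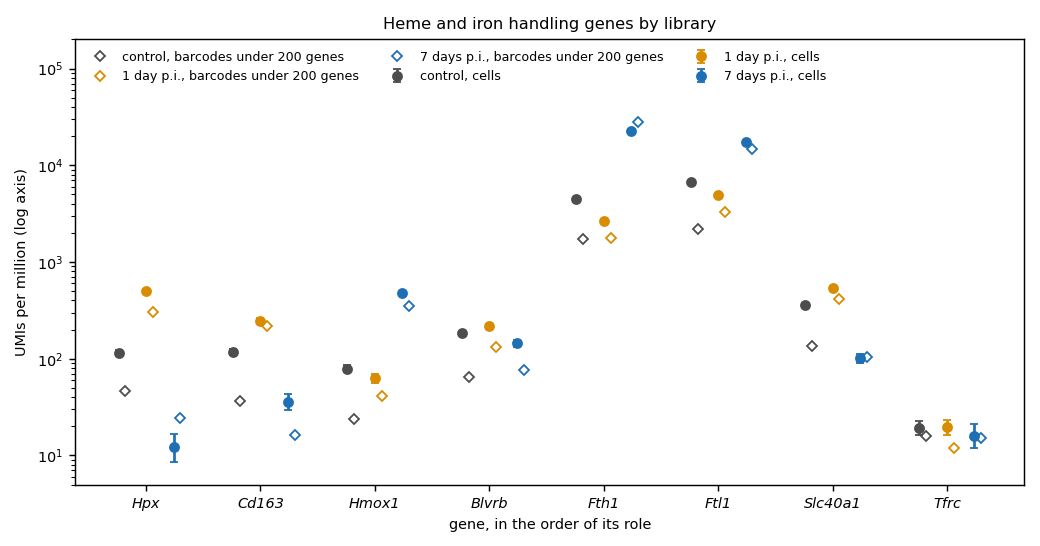
CPM of the 8 genes (log axis) in the control library and at 1 day and 7 days p.i., with exact Poisson 95% intervals as bars; each filled point is 1 pooled library, and open diamonds are its barcodes under 200 genes. Hmox1, Fth1 and Ftl1 are highest at 7 days p.i., Slc40a1, Cd163 and Hpx are highest 1 day and lowest 7 days p.i., and Tfrc stays between 16.0 and 19.5 CPM.

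Counted against a 2-fold difference, 2 of the 8 genes were higher at 1 day p.i. than in control (Cd163 and Hpx), while 12.2% of the 11357 genes with at least 50 UMIs were higher by that much. None of the 8 was 2-fold lower, beside 5.86% of all genes. Cd163 was below 2-fold, at 1.49 and 1.80, when at least 500 genes per cell or at most 20% mitochondrial UMIs were asked for. At 7 days p.i. against control 3 genes were higher (Hmox1, Fth1 and Ftl1) beside 8.79% of 10227 genes, and 3 were lower (Slc40a1, Cd163 and Hpx) beside 21.8%. The same 3 genes were higher and the same 3 lower at 7 days than at 1 day p.i., beside 11.6% and 27.8% of 10271 genes. These comparisons share libraries and are not independent of each other. The median log2 ratio over all genes against control was 0.04 at 1 day and -0.215 at 7 days p.i., and over the 8 genes it was 0.13 and -0.31.

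Cd163, the macrophage receptor for complexes of hemoglobin and haptoglobin (chr6:124304656-124330527, plus strand), was measured at 117 CPM in control, 248 at 1 day and 35.6 at 7 days p.i. The ratio to control was 2.12 (1.95 to 2.30) at 1 day and 0.304 (0.247 to 0.371) at 7 days p.i. The level was thus highest in the middle library and lowest in the last, with intervals that do not overlap. Within Kupffer-like cells, however, its level was nearly the same in all 3 libraries, at 564, 639 and 548 CPM, with ratios of 1.13 (1.02 to 1.26) at 1 day and 0.971 (0.763 to 1.22) at 7 days p.i. Kupffer-like cells made up 12.8%, 12.2% and 3.40% of the cells of the 3 libraries. They held 80.1% of all Cd163 UMIs in control, 39.2% at 1 day and 74.3% at 7 days p.i.

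The additional Cd163 UMIs of 1 day p.i. lay mainly in cells without a class, where the level was 31.9 CPM in control and 218 at 1 day p.i., and in the barcodes with fewer than 200 genes, where it was 36.7 and 218. Barcodes with so few genes are taken here to carry mostly free RNA from broken cells, and their content was used as an estimate of what free RNA lends to a cell. Scaled by the other Kupffer markers, free RNA in cells without a class at 1 day p.i. would carry 205 Cd163 CPM, beside the 218 measured. Cells stay without a class where no markers clearly exceed those of the barcodes with fewer than 200 genes, so that the gate in part sets this closeness. These values cannot tell free RNA from Kupffer cells that were not gated. In T cell-like cells, which should lack Cd163, 1.05% of cells had a UMI in control and 5.79% at 1 day p.i., beside 32.2% and 33.8% of Kupffer-like cells. With all cells thinned to a depth of 300 UMIs, the shares in Kupffer-like cells were 15.0% (13.1% to 17.1%) in control, 16.3% (14.1% to 18.6%) at 1 day and 14.6% (9.69% to 20.8%) at 7 days p.i., with 22, 27 and 20 shallower cells left out. Median depths were 820, 708 and 553 UMIs in Kupffer-like cells, and 606.5 and 515 UMIs in T cell-like cells of the first 2 libraries.

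Hpx encodes hemopexin, the plasma protein by which hepatocytes supply a carrier for free heme (chr7:105591613-105600137, minus strand). It was measured at 114 CPM in control, 501 at 1 day and 12.1 at 7 days p.i., ratios to control of 4.38 (4.06 to 4.72) and 0.106 (0.0739 to 0.147). The control value rests on few cells, as 1 cell held 189 of its 917 UMIs (20.6%) and the top 10 cells held 59.5%. Hepatocyte-like cells numbered 77 in control, 386 at 1 day and 12 at 7 days p.i., and held 76.1% and 64.1% of the Hpx UMIs of the first 2 libraries. Within them the direction was the opposite of that in the whole library, with 6379 CPM (5915 to 6871) in control and 2756 (2635 to 2881) at 1 day p.i., a ratio of 0.432 (0.396 to 0.472) that ranged from 0.182 to 0.763 under other filters and gates. As a mean over cells the hepatocyte-like levels were 3548 and 2321 CPM.

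Outside hepatocytes, Hpx at 1 day p.i. was present in every class at low levels of 90.0 to 296 CPM, where estimates from free RNA were 121 to 231 CPM. In Kupffer-like cells it was 32.3 CPM in control and 148 at 1 day p.i., a ratio of 4.60 (3.25 to 6.64), and the level at the class's share of hepatocyte transcripts would be 138. In endothelial-like cells the measured level of 189 stood beside 180, and in T cell-like cells 191 stood beside 184. In these 3 classes measured and estimated levels differed by less than the interval of the measured level. Monocyte-like cells had 92.7 CPM (34.0 to 202) from 6 UMIs beside an estimate of 172. Cholangiocyte-like cells, with 12 Hpx UMIs, lay below their estimate by more than the interval. Kupffer-like cells of 7 days p.i. held 0 Hpx UMIs, at most 0.629 times the control level with a floor of 3 UMIs.

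Hmox1 encodes heme oxygenase 1, the inducible enzyme that opens the heme ring and frees its iron (chr8:75093621-75100589, plus strand). It was measured at 79.1 CPM (73.1 to 85.5) in control, 62.7 (56.6 to 69.3) at 1 day and 481 (456 to 506) at 7 days p.i. Against control the ratio was 0.793 (0.696 to 0.901) at 1 day and 6.07 (5.53 to 6.68) at 7 days p.i., so that the message was slightly lower early and much higher late. At least 1 UMI was found in 4.48%, 3.60% and 16.3% of the cells. The cells that held it also differed between the libraries. In control 48.9% of the Hmox1 UMIs were in Kupffer-like and 16.7% in Gpnmb/Trem2 macrophage-like cells, whereas at 7 days p.i. 3.54% were in Kupffer-like and 32.9% in Arg1/Ccl2 macrophage-like cells.

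Arg1/Ccl2 macrophage-like cells, gated by genes of recently recruited wound macrophages, had the highest Hmox1 level of any class and library, as the plot of levels by class shows. Their 753 cells at 7 days p.i. gave 1034 CPM (944 to 1130), which was 2.94 times (2.21 to 3.99) the level of Kupffer-like cells in the same library. Only 1 of the 4 genes kept aside to check this class was 2-fold above the other cells at 7 days p.i., since Cd14, Lyz2 and Cd68 were not. The same class in control held 50 cells and 6 Hmox1 UMIs, and the ratio of 8.30 (3.79 to 22.7) ranged from 3.87 to 17.2 under other filters and gates. A UMI of Hmox1 was found in 32.0% of these cells at 7 days p.i., and in 23.3% (20.3% to 26.6%) of 721 cells thinned to 300 UMIs. Among T cell-like cells of that library, which served as the background, the shares were 4.60% and 3.85% (0.800% to 10.8%), at median depths of 536 and 485 UMIs.

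Several other classes also had more Hmox1 at 7 days p.i. than in control. In Kupffer-like cells it was 232 CPM in control, 170 at 1 day and 352 at 7 days p.i., with ratios of 0.731 (0.599 to 0.888) and 1.51 (1.11 to 2.03). Monocyte-like cells had 29.4 CPM in control and 321 CPM at 7 days p.i., a ratio of 10.9 (6.53 to 19.4) from 17 and 115 UMIs. The ratio was 4.54 (2.10 to 11.2) in neutrophil-like cells and 9.15 (3.71 to 21.4) in endothelial-like cells, from 41 and 10 UMIs at 7 days p.i. Neutrophil-like cells had 160 CPM (115 to 217) there, an interval that held the free RNA estimates of 186 by Kupffer markers and 123 by hepatocyte transcripts. In monocyte-like cells these estimates were 136 and 89.7 CPM, and in Kupffer-like cells that by hepatocyte transcripts was 105, each below the measured interval. T cell-like cells had 1 UMI in control and 4 at 7 days p.i., a ratio of 13.6 (1.35 to 670). In Gpnmb/Trem2 macrophage-like cells the ratio was 1.73 (0.893 to 3.09) and included 1. The levels of Kupffer-like, monocyte-like and Gpnmb/Trem2 macrophage-like cells at 7 days p.i. did not differ beyond their intervals between neighbours in that order.

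**Figure D2:**
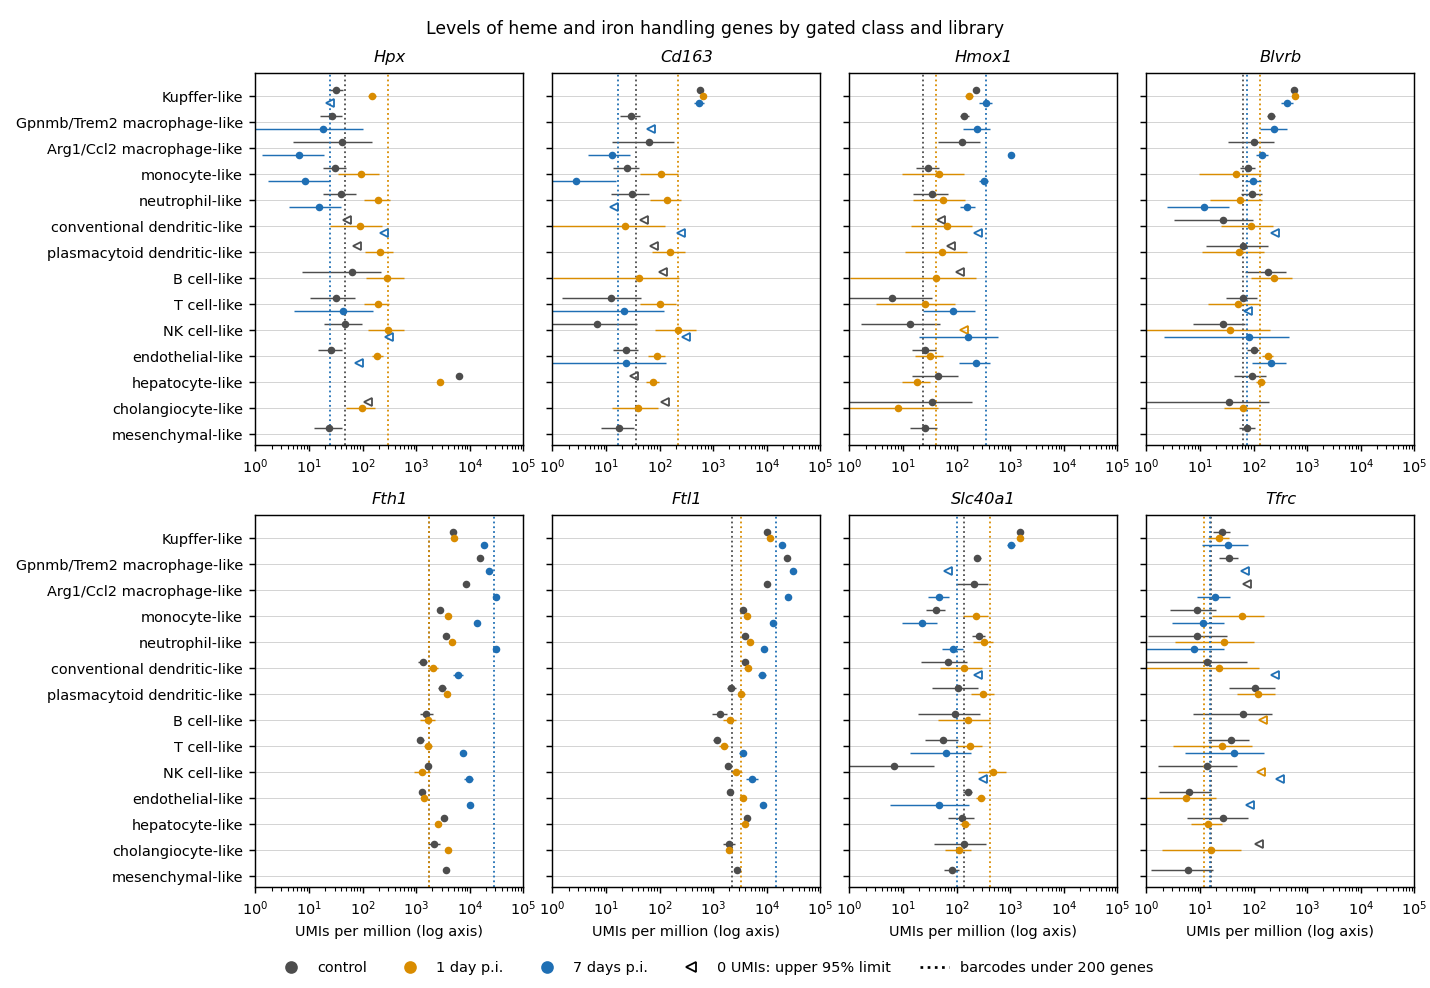
Level of each of the 8 genes by marker-gated cell class (rows) and library (colours), in CPM on a log axis with exact Poisson 95% intervals; triangles are upper limits at 0 UMIs, dotted lines mark barcodes under 200 genes, and classes with fewer than 20 cells in a library are left out. Hmox1 is highest in Arg1/Ccl2 macrophage-like cells at 7 days p.i. (1034 CPM), Slc40a1 and Cd163 are highest in Kupffer-like cells in each library, and Hpx is highest in hepatocyte-like cells.

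Blvrb encodes biliverdin reductase B, an enzyme that reduces biliverdin and flavins (chr7:27447978-27466144, plus strand). Its message differed little between libraries, at 184, 217 and 144 CPM, with ratios to control of 1.18 (1.09 to 1.27) at 1 day and 0.781 (0.701 to 0.869) at 7 days p.i. Kupffer-like cells were its main source in control and held 52.0% of its UMIs. Their level was 575 CPM in control, 595 at 1 day and 426 at 7 days p.i., and in control it was 2.73 times (2.30 to 3.25) that of the next class, the Gpnmb/Trem2 macrophage-like cells. The ratio within Kupffer-like cells was 1.03 (0.925 to 1.15) at 1 day and 0.741 (0.564 to 0.958) at 7 days p.i. The latter became 1.03 when cells were gated by the most distinct markers, with no allowance for free RNA. In endothelial-like cells Blvrb was 99.6 CPM in control and 184 at 1 day p.i., a ratio of 1.85 (1.29 to 2.64), while the barcodes with fewer than 200 genes went from 64.4 to 132. The part of free RNA in that difference was not tested.

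Ferritin is a shell of heavy and light chains, encoded by Fth1 (chr19:9980598-9985098, plus strand) and Ftl1 (chr7:45457944-45459884, minus strand). The heavy chain oxidizes iron for storage, and the light chain helps to form the mineral core. The chains together took 1.13% of all UMIs in control, 0.760% at 1 day and 4.04% at 7 days p.i. Fth1 was measured at 4508, 2630 and 22814 CPM, ratios to control of 0.584 (0.573 to 0.595) at 1 day and 5.06 (5.00 to 5.13) at 7 days p.i. Ftl1 was measured at 6769, 4971 and 17552 CPM, ratios of 0.734 (0.724 to 0.745) and 2.59 (2.56 to 2.62). Both chains were thus lower at 1 day and higher at 7 days p.i., and the heavy chain moved further in each direction. The share of cells with a UMI was already high in control, 70.1% for Fth1 and 75.5% for Ftl1, and reached 97.4% and 96.2% at 7 days p.i.

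The lower level at 1 day p.i. was not found within the main classes. In Kupffer-like cells Fth1 was 4791 CPM in control and 5063 at 1 day p.i., a ratio of 1.06 (1.02 to 1.10), and Ftl1 was 9964 and 11637, a ratio of 1.17 (1.14 to 1.20). In neutrophil-like cells the ratios at 1 day p.i. were 1.33 (1.17 to 1.51) for Fth1 and 1.20 (1.06 to 1.36) for Ftl1. Hepatocyte-like cells were an exception for Fth1, with 0.769 (0.687 to 0.863), and so were the cells without a class, in which Fth1 was 3462 CPM in control and 2001 at 1 day p.i. and Ftl1 was 4501 and 3795. These were 48.8% of the cells in control and 70.0% at 1 day p.i. A class with very high ferritin was nearly absent at 1 day p.i., since Gpnmb/Trem2 macrophage-like cells numbered 570 in control, 4 at 1 day and 61 at 7 days p.i. In control these cells, which express the markers of macrophages rich in lysosomes and lipid, held 31.8% of all Fth1 and 33.7% of all Ftl1 UMIs, at 15166 and 24132 CPM.

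In all 9 classes with at least 20 cells in both libraries, both ferritin chains were higher at 7 days p.i. than in control. The ratio for Fth1 was 3.76 (3.60 to 3.94) in Kupffer-like cells, 1.53 (1.44 to 1.62) in Gpnmb/Trem2 macrophage-like cells and 3.68 (3.34 to 4.07) in Arg1/Ccl2 macrophage-like cells. It was 4.93 (4.66 to 5.22) in monocyte-like cells, 8.56 (7.96 to 9.22) in neutrophil-like cells and 7.78 (6.91 to 8.76) in endothelial-like cells. Ftl1 had a smaller ratio than Fth1 in each of the 9 classes, from 1.29 (1.23 to 1.36) in Gpnmb/Trem2 macrophage-like cells to 4.05 (3.60 to 4.56) in endothelial-like cells. The highest Fth1 level of any class was 31378 CPM in Arg1/Ccl2 macrophage-like cells, followed by 30400 in neutrophil-like cells, and the highest Ftl1 level was 31183 in Gpnmb/Trem2 macrophage-like cells. T cell-like cells, which are not known for iron storage, had 1202 Fth1 CPM in control and 7366 at 7 days p.i., a ratio of 6.13 (5.12 to 7.35), or 3.92 when cells were gated by the most distinct markers.

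**Figure D3:**
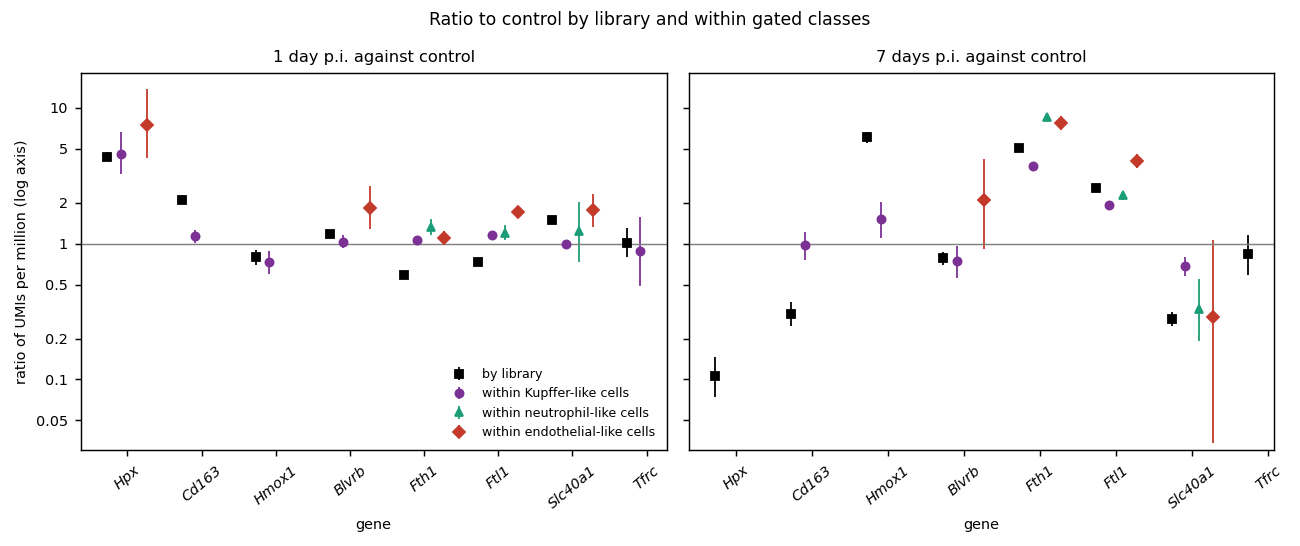
Ratio of CPM to control (log axis, with conditional binomial 95% intervals) at 1 day and 7 days p.i., in the whole library and within Kupffer-like, neutrophil-like and endothelial-like cells; the line at 1 marks no difference, and ratios whose sums are too small are left out. The Fth1 ratio at 7 days p.i. is 3.76 in Kupffer-like and 8.56 in neutrophil-like cells, while the Cd163 ratio in Kupffer-like cells stays at 1.13 and 0.971.

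The barcodes with fewer than 200 genes, taken here to carry free RNA, moved with the ferritin and Hmox1 values of 7 days p.i. Whether some of them were neutrophils with few detected genes was not tested, and the estimates below depend on it. In barcodes with fewer than 200 genes Fth1 was measured at 1735 CPM in control and 27716 at 7 days p.i., Ftl1 at 2218 and 14608, and Hmox1 at 23.8 and 354. S100a8 and S100a9, which neutrophils make in large amounts, took 8.08% of the UMIs of these barcodes and between 0.965% and 3.15% in the gated classes other than neutrophil-like cells. At that share T cell-like cells would carry 7131 Fth1, 3759 Ftl1 and 91.0 Hmox1 CPM from free RNA, beside the measured 7366, 3555 and 85.7. For all 3 genes this estimate lay within the interval of the T cell-like level. NK cell-like cells, the other lymphocytes with enough cells, lay above it, with 9569 Fth1 CPM beside 3310 and 5279 Ftl1 CPM beside 1745 from 28 cells. For Kupffer-like cells the same estimate is 4045 Fth1 CPM beside 18037 measured, for monocyte-like cells 6316 beside 13876, and for endothelial-like cells 5065 beside 9975. The estimate depends on the transcripts it is scaled by. By secretory hepatocyte transcripts it was 8257 Fth1 CPM in Kupffer-like, 7028 in monocyte-like, 7064 in endothelial-like, 5719 in T cell-like and 12588 in NK cell-like cells, the last of these above the measured level. By Kupffer markers it was 10654 in monocyte-like cells. Neutrophil-like cells make S100a8 and S100a9 themselves, so that their estimates rest on the other markers only. Their Fth1 level of 30400 CPM stood beside 14540 by Kupffer markers and 9655 by hepatocyte transcripts. Their Ftl1 level of 8978 CPM (8615 to 9352) stood beside 7663 and 5089, which is most of the measured level. The part of free RNA in the neutrophil-like ratios to control was not tested. Among the gated classes Arg1/Ccl2 macrophage-like cells stood furthest above the S100a8 and S100a9 estimate for Fth1 and Hmox1, with 5866 beside 31378 and 74.9 beside 1034. For Ftl1 they had 3092 beside 24741, and Gpnmb/Trem2 macrophage-like cells had 2600 beside 31183. Conventional dendritic-like cells lay below it for Fth1, with 10818 beside 6148 from 20 cells. In control the estimates for Fth1 in the macrophage-like, Kupffer-like and monocyte-like classes were 177 to 255 CPM by S100a8 and S100a9 and 598 to 876 CPM by hepatocyte transcripts, beside 2813 to 15166 measured.

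**Figure D4:**
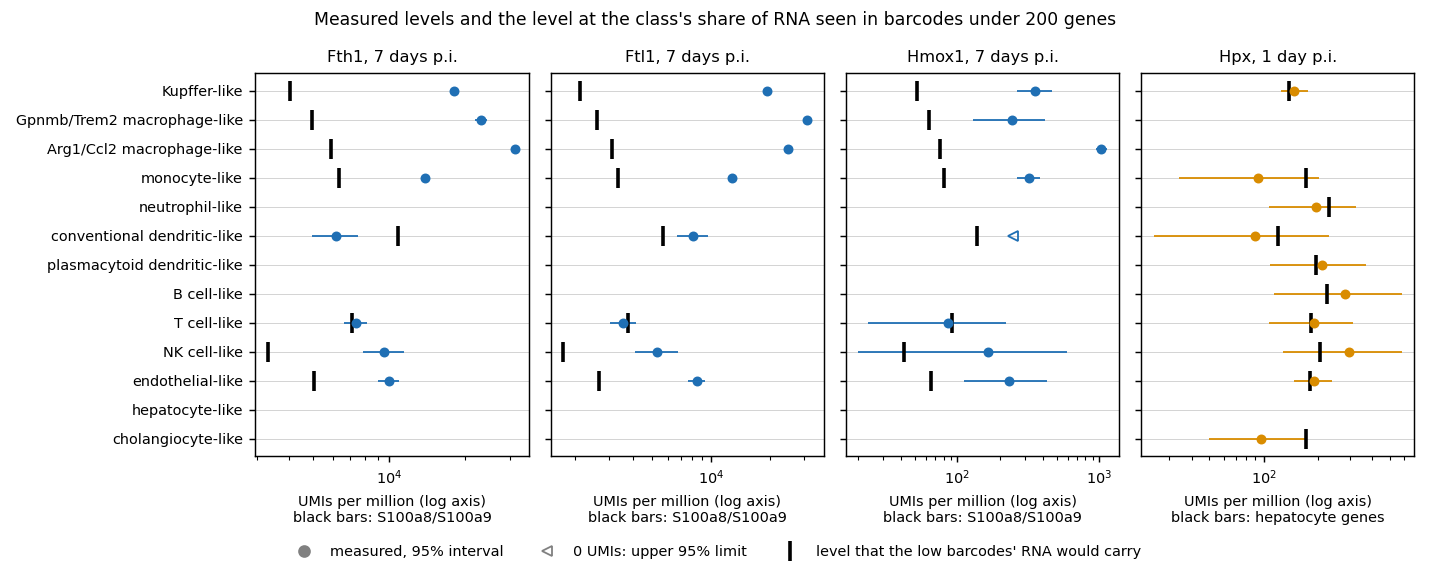
Measured levels of Fth1, Ftl1 and Hmox1 at 7 days p.i. and of Hpx at 1 day p.i. by class (points with 95% intervals, log axis), beside black bars for the level that free RNA would carry at the class's share of S100a8 and S100a9 (first 3 panels) or of secretory hepatocyte transcripts (last panel); the class that makes the reference transcripts is left out. T cell-like cells lie on the bar for Fth1 (7366 and 7131), whereas Arg1/Ccl2 macrophage-like cells lie above it (31378 and 5866), and Hpx lies near its bar in Kupffer-like cells (148 and 138).

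The balance of the ferritin chains shifted toward the heavy chain at 7 days p.i., as the plot of the Fth1 to Ftl1 ratio shows. UMIs are counted near the 3′ end of a transcript and were not divided by its length, and the capture of the 2 messages may differ, so that the ratio is compared between cells and not read as a ratio of molecules. Over all cells there were 0.666 Fth1 UMIs for each Ftl1 UMI in control, 0.529 at 1 day and 1.30 at 7 days p.i. Within Kupffer-like cells the values were 0.481 (0.467 to 0.495), 0.435 (0.420 to 0.450) and 0.933 (0.884 to 0.983). Neutrophil-like cells had the highest ratio at 7 days p.i., 3.39 (3.23 to 3.55), against 0.896 (0.814 to 0.986) in control. Gpnmb/Trem2 macrophage-like cells changed least, from 0.628 (0.614 to 0.643) to 0.743 (0.689 to 0.800). Cholangiocyte-like cells had 1.09 (0.748 to 1.58) in control and 1.98 (1.70 to 2.32) at 1 day p.i. In barcodes with fewer than 200 genes the ratio was 0.782 in control and 1.90 at 7 days p.i., and its part in the class values was not tested.

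**Figure D5:**
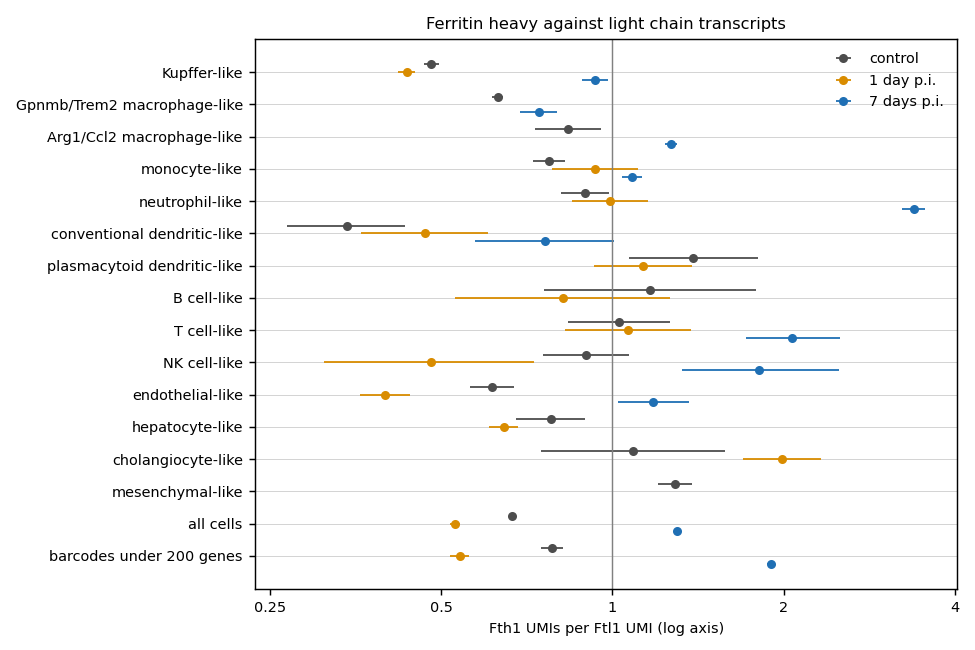
UMIs of Fth1 divided by UMIs of Ftl1 (log axis, with conditional binomial 95% intervals) by cell class and library, with all cells and the barcodes under 200 genes for comparison. The ratio is highest in neutrophil-like cells at 7 days p.i. (3.39) and below 1 in Kupffer-like and Gpnmb/Trem2 macrophage-like cells in every library shown.

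Ftl1 has a near-identical copy in the genome that is counted apart. The table lists Gm10116, an older symbol of the Ftl1 pseudogene Ftl1-ps1 (chr13:74406397-74407325, a pseudogene in RefSeq on GRCm38.p6), with 5.04 UMIs for every 100 Ftl1 UMIs in control, 5.37 at 1 day and 7.63 at 7 days p.i. Only reads of mapping quality of at least 10 were counted, which reads that fit both places equally may not reach. How many Ftl1 reads were left out or wrongly assigned was not tested. This share therefore sets no bound on the error of Ftl1 or of the Fth1 to Ftl1 ratio.

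Slc40a1 encodes ferroportin, the only known exporter of iron from cells (chr1:45908068-45926523, minus strand). It was measured at 360 CPM in control, 535 at 1 day and 101 at 7 days p.i., ratios to control of 1.48 (1.41 to 1.56) and 0.279 (0.248 to 0.314). Kupffer-like cells were the class with by far the highest level in each library, at 1526, 1510 and 1042 CPM. The next class, neutrophil-like cells in control, was lower by a factor of 5.89 (4.55 to 7.76). Within Kupffer-like cells the ratio to control was 0.989 (0.923 to 1.06) at 1 day and 0.682 (0.575 to 0.804) at 7 days p.i. The library at 7 days p.i. was thus lower than control by more than Kupffer-like cells were, while their share of the cells was 3.40% against 12.8%.

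The share of Kupffer-like cells with an Slc40a1 UMI was 66.5% in control, 61.6% at 1 day and 44.5% at 7 days p.i. After thinning it was 36.5% (33.8% to 39.1%), 36.3% (33.4% to 39.2%) and 25.1% (18.8% to 32.3%), beside 2.11%, 8.40% and 2.56% in T cell-like cells. Gpnmb/Trem2 macrophage-like cells had 245 CPM in control and 0 UMIs in 61 cells at 7 days p.i., which by a floor of 3 counts allows up to 4.92% of cells with a UMI, not a share of cells that express the gene, and a level of at most 0.228 times control with a floor of 3 UMIs. At 1 day p.i. the higher library level again lay outside the Kupffer-like cells. Cells without a class had 112 CPM in control and 430 at 1 day p.i., beside 392 from free RNA scaled by the Kupffer markers, and the barcodes with fewer than 200 genes went from 136 to 416. As with Cd163, the gate in part sets the closeness of 430 and 392. In endothelial-like cells the level was 161 in control and 284 at 1 day p.i., beside 223 from free RNA by the same markers at 1 day p.i.

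Tfrc encodes transferrin receptor 1, through which cells take up iron bound to transferrin (chr16:32608920-32632794, plus strand). It was the rarest message in control, with 154, 119 and 49 UMIs in the 3 libraries, or 19.2, 19.5 and 16.0 CPM. The ratio to control was 1.01 (0.791 to 1.30) at 1 day and 0.834 (0.592 to 1.16) at 7 days p.i., so that a difference up to these bounds was not detectable at this depth. Plasmacytoid dendritic-like cells had the highest values, 106 CPM (34.5 to 248) from 5 UMIs in control and 123 (49.4 to 253) from 7 UMIs at 1 day p.i. Between the highest classes of each library the interval of every ratio of neighbours included 1. Kupffer-like cells had 25.5, 22.6 and 33.8 CPM, from 34, 21 and 5 UMIs.

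Counted within classes at 7 days p.i. against control, the genes with at least 50 UMIs over both libraries were set beside all genes of that class. In Kupffer-like cells 1 of 6 genes was 2-fold higher (Fth1) and 0 lower, beside 6.88% and 9.55% of 3998 genes. In Gpnmb/Trem2 macrophage-like cells 0 of 5 were higher and 1 lower (Slc40a1), beside 12.1% and 17.4% of 2264 genes. Arg1/Ccl2 macrophage-like and monocyte-like cells each had 3 of 4 genes higher, namely Hmox1, Fth1 and Ftl1. The background was 29.4% higher and 7.51% lower of 1611 genes in the former, and 14.1% and 5.01% of 2694 genes in the latter. In neutrophil-like cells 2 of 3 were higher (Fth1 and Ftl1) and 1 lower (Slc40a1), beside 27.1% and 21.2% of 1271 genes. The Ftl1 ratio there was under 2-fold, at 1.67, with at most 20% mitochondrial UMIs and, at 1.84, without mitochondrial genes in the denominator. Endothelial-like cells had 3 of 4 higher (Fth1, Ftl1 and Blvrb) and 1 lower (Slc40a1), beside 13.5% and 12.4% of 2152 genes, with only 9 Blvrb and 2 Slc40a1 UMIs at 7 days p.i. In these cells Blvrb was under 2-fold, at 1.68 to 1.90, under 4 alternatives, and Slc40a1 was within 2-fold at 0.582 with at least 500 genes and at 0.660 when gated by the most distinct markers. At 1 day p.i. in Kupffer-like cells 1 of 8 was higher (Hpx) and 0 lower, beside 5.10% and 3.57% of 5409 genes.

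Across cell types the genes followed a few shared patterns. Pearson's r of log2(CPM + 10) was computed over 23 combinations of class and library among 5469 genes, as a description, since the points share libraries and free RNA. Hmox1 correlated with Ftl1 at r = 0.878. Fth1 was most like Litaf (0.898) and Cstb (0.895), and correlated with Ftl1 at 0.872 and with Hmox1 at 0.865. Ftl1 was most like its pseudogene (0.985), followed by the lysosomal membrane protein Cd68 (0.913). Slc40a1 and Cd163 correlated with each other at 0.860 and with the ferritin chains between -0.07 and 0.08. They were most like Fcna (0.909) and Vsig4 (0.942), which are Kupffer markers that were used for the gate. Blvrb was most like the lysosomal genes Acp2 (0.878) and Lamp1 (0.842). Hpx was most like the hepatocyte genes Itih3 and Slc25a47 (0.971 each), and Tfrc reached no more than 0.708, with Nvl, from 156 UMIs.

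Of 70 further gene symbols of heme and iron metabolism, listed from general knowledge, 64 were among the genes counted. The absent symbols include second names of listed genes, Cd91 for Lrp1 and Hjv for Hfe2. At 1 day p.i. 18 of 61 with enough UMIs were 2-fold higher than control and 3 lower, and at 7 days p.i. 8 of 55 were higher and 16 lower. These compare with 12.2% higher and 5.86% lower of all genes at 1 day p.i., and with 8.79% and 21.8% at 7 days p.i. Of the genes of systemic iron control 8 of 10 were higher at 1 day p.i. Hamp2, a hepcidin gene, was 31.3 times (23.9 to 41.7) its control level, and Hamp, another hepcidin gene, 6.41 times (5.39 to 7.66). Tfr2, the transferrin receptor of hepatocytes, was highest in the list of iron uptake genes, at 13.7 times (8.73 to 22.6). Secretory hepatocyte transcripts moved the same way, from 0.154% to 2.95% of UMIs, and their part in these values was not tested. Among the systemic genes with enough UMIs at 7 days p.i. 4 of 7 were lower, including Bmp2, the endothelial inducer of hepcidin, at 0.134 times its control level, while Id1 was higher at 2.49 times (2.21 to 2.82). Endothelial-like cells, the class with the highest Bmp2 level, were 9.17% of the cells in control and 1.30% at 7 days p.i.

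In the uptake list 4 of 11 genes were higher and 3 lower at 1 day p.i., where Ltf, a lactoferrin of neutrophil granules, was lowest at 0.0649 times control (0.0292 to 0.126). The later library had 3 of 9 higher and 4 lower. Lcn2, the siderophore-binding lipocalin 2, was 10.6 times (9.78 to 11.6) control and highest in neutrophil-like cells, and Steap2, a metalloreductase, was lowest at 0.0452 times (0.00112 to 0.262) from 1 UMI. The neutrophil transcripts S100a8 and S100a9 were higher in the same comparison, at 0.339% of UMIs in control and 3.53% at 7 days p.i.

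Among genes of heme capture and breakdown 3 of 10 were higher at 1 day p.i., led by Pgrmc1 at 3.84 times control, and the lowest was Mfsd7b, an older symbol of the heme exporter Flvcr1, at 0.583 times. The later library had 1 of 9 higher, Hp, which encodes haptoglobin, at 2.10 times (1.97 to 2.23), and 2 were lower, led by Hebp1 at 0.310 times. Of the heme synthesis genes 1 of 8 was higher at 1 day p.i., Alad at 2.53 times, and the lowest, Alas1, was at 0.978 times. In the later library 1 of 8 was higher, Alas1, which encodes the first enzyme of the pathway, at 3.40 times (2.92 to 3.95), and 2 were lower, led by Fech at 0.316 times. Of the storage and mitochondrial iron genes 1 of 9 was higher at 1 day p.i., the ferritin receptor of autophagy Ncoa4 at 2.03 times (1.37 to 3.03), and Slc25a28 was lowest at 0.743 times. None of these 9 was 2-fold higher or lower at 7 days p.i., where Slc25a37, a mitochondrial iron importer, was highest at 1.82 times (1.47 to 2.24).

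Among the regulators 1 of 9 was higher at 1 day p.i., Aco1, which encodes iron regulatory protein 1, at 2.10 times (1.70 to 2.61), and Fbxl5 was lowest at 0.715 times. In the later library 2 of 9 were higher and none was 2-fold lower, with Nr1h3 lowest at 0.519 times. Fbxl5, whose product marks iron regulatory protein 2 for degradation when iron is plentiful, was 5.38 times (4.71 to 6.15) control, and Bach1, a heme-sensing repressor of Hmox1 that is named after its value was seen, 2.58 times (2.27 to 2.93). Fbxl5, Alas1 and Id1 were each highest in neutrophil-like cells of 7 days p.i., a class that made up 3.04% of the cells in control and 8.93% at 7 days p.i. In barcodes with fewer than 200 genes Fbxl5 was 43.6 CPM in control and 344 at 7 days p.i., and the part of neutrophils and free RNA in these ratios was not tested. The 4 hemoglobin genes measured were within 2-fold of control at 1 day p.i., from 0.844 for Hba-a2 to 0.941 for Hba-a1, and all 4 were 2-fold lower at 7 days p.i., from 0.224 for Hbb-bt to 0.451 for Hba-a2. Red blood cells had been lysed during preparation, and how much of their RNA was left behind in each library was not tested.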

How the data were processed

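The 3 libraries of mouse liver cells, 1 each for control, 1 day p.i. and 7 days p.i., were analysed. The deposited values are raw UMI counts per gene and cell barcode; per the file headers, the authors counted reads of mapping quality of at least 10 with the DigitalExpression program, taking coding and untranslated bases in sense orientation, and merged UMIs at an edit distance of 1. The submitters' processing notes name STAR 2.5.2a and the build hg19, although the gene symbols are those of mouse, so that the coordinates and sequences given here come from GENCODE M21 on GRCm38 and not from the files.

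Barcodes with at least 200 genes were kept, with no doublet caller. Counts were summed per library or class and given as CPM (per 1000000 UMIs), with exact Poisson intervals, exact binomial (Clopper-Pearson) intervals for shares and conditional binomial intervals for ratios, at 95%. Ratios were not given where both sums were at or under 3 UMIs. A cell received a class when at least 2 distinct markers were present, when the sum of its markers exceeded that of the library's barcodes under 200 genes by a Poisson tail probability under 0.001, and when this tail was 10 times smaller than for the next class. Classes of at least 20 cells are reported. Genes with at least 50 UMIs over both libraries entered the 2-fold counts. Named are the 8 genes in every library and class, the genes with the largest rise and fall of each pathway list, and the genes most like each of the 8, up to 3 for each. Some results under this rule are not reported here. The 8 genes, the markers and the lists were chosen with earlier results of these data known, and the tail rule of the gate was chosen after the files had been seen. With 1 library per condition no test was possible, and cells were not taken as replicates.

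The total depth was 8013800, 6107866 and 3058967 UMIs in cells, which limits only the counting error. The alternatives were other gene minimums, a mitochondrial maximum, other denominators, a mean over cells, other gates, and leaving out deep or shared barcodes. Python 3.11.15, numpy 2.4.6, scipy 1.17.1, pandas 2.3.3 and matplotlib 3.10.9 were used, and the gate and the intervals were tested on simulated data.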

Additional observations from a re-analysis of the deposited data

Results flagged for a closer look

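In 7 of the 8 genes the libraries of 1 day and 7 days p.i. lay on opposite sides of control with intervals that excluded 1 at both times. The share of all genes that do so was not computed. The number therefore describes these genes and does not set them apart from others. Both intervals of Tfrc, at 1.01 and 0.834 times control, included 1. Hmox1 was 0.793 times control at 1 day and 6.07 times at 7 days p.i., Fth1 0.584 and 5.06 times, and Ftl1 0.734 and 2.59 times. In the other direction, Slc40a1 was 1.48 and 0.279 times control, Cd163 2.12 and 0.304 times, Blvrb 1.18 and 0.781 times, and Hpx 4.38 and 0.106 times. With 1 pooled library per time the difference between the times was not tested, and both ratios share the control library.

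The barcodes with fewer than 200 genes, which are not part of the levels by library and class, held more of several messages than those of control. At 1 day p.i. Hmox1 was 1.71 times the control level there, Ftl1 1.47 times, Slc40a1 3.06 times, Cd163 5.94 times, Blvrb 2.05 times and Hpx 6.51 times. At 7 days p.i. Hmox1 was 14.9 times, Fth1 16.0 times and Ftl1 6.59 times the control level. Other messages were lower there at 7 days p.i., with Slc40a1 at 0.763 times (0.623 to 0.931), Cd163 at 0.448 times (0.273 to 0.714) and Hpx at 0.522 times (0.347 to 0.772).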

How the results depend on the processing

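No ratio by library whose interval excluded 1 turned its direction under the 8 alternatives. Tfrc at 1 day p.i., whose interval included 1, ranged from 0.839 to 1.16 around 1.01. Of all such values by library, 104 of 192 stayed within the interval of the value reported. The number of genes 2-fold higher at 1 day p.i. than in control was 1 instead of 2 with at least 500 genes per cell and with at most 20% mitochondrial UMIs. With at least 500 genes the ratio for Fth1 at 7 days p.i. against control was 3.25 instead of 5.06, and that for Tfrc 0.530 instead of 0.834. Without the 5% of barcodes with the most UMIs the ratio for Hpx at 7 days p.i. was 0.280 instead of 0.106, and with at least 500 genes it was 0.0662. Within classes 449 of 540 values stayed within their interval, and among ratios whose interval excluded 1, 2 turned. Fth1 in monocyte-like cells at 1 day p.i., a class led there by immunoglobulin genes, was 0.955 with at least 500 genes. Blvrb in Kupffer-like cells at 7 days p.i. was 1.03 when gated by the most distinct markers, an alternative added after the data had been seen. Some ratios whose interval included 1 also crossed it. Blvrb in Arg1/Ccl2 macrophage-like cells at 7 days p.i. was 1.40, and 0.782 by that gate. The Hmox1 ratio in Arg1/Ccl2 macrophage-like cells ranged from 3.87 to 17.2, that in monocyte-like cells was 5.84 instead of 10.9 with at least 500 genes, and that of Hpx in hepatocyte-like cells from 0.182 to 0.763. The cause of these shifts was not tested. No paired analysis was possible because each condition has 1 library, and for the same reason no library could be left out. Depth limits Hpx and Tfrc at 7 days p.i., with 37 and 49 UMIs.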
